A study of Homo sapiens with 9 samples.

Results

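The comparison described here set 3 arrays of an IMR-32 line that stably expresses 82-kDa choline acetyltransferase (ChAT) against 3 arrays labelled wild type IMR-32. These 6 arrays were taken by their titles from a series of 9. The other 3 arrays came from a line stably expressing the 69-kDa form, and they served to show where the lines differed. IMR-32 is an established human neuroblastoma cell line, derived from a tumour of the sympathetic nervous system. According to the design text the 3 arrays of a group were biological replicates. With a single line for each form, an effect of the form and a property of the line cannot be told apart. The sources used here give neither the promoter and vector of the transgene nor the number of clones. All 22215 probe sets of the array table other than the AFFX controls were tested, out of 22283, and 11963 genes had at least 1 probe set with a single gene symbol. For each gene the brightest probe set over all 9 arrays was read. A gene was called higher or lower when limma gave an adjusted p under 0.05 after Benjamini-Hochberg adjustment over all 22215 probe sets.

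ChAT makes the neurotransmitter acetylcholine from choline and acetyl-CoA. The 69-kDa form is found mainly in the cytoplasm, whereas the 82-kDa form, known from primates, carries a nuclear localisation signal in its longer amino terminus and is found in nuclei of cholinergic neurons. A protein with a nuclear address gives a reason to read the comparison by nuclear functions: enzymes that write and erase histone marks, complexes that move nucleosomes, proteins that fold and anchor chromatin, and transcription factors. For this purpose 18 lists of nuclear genes were read.

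Before the results, the labels were set against the genes that define the cells. MYCN, the oncogene for whose amplification IMR-32 is known, read 4301, 6025 and 6118 on the 82-kDa arrays and 62.5, 120 and 99.97 on the arrays labelled wild type. The 69-kDa arrays read 4181, 5567 and 5947. The arrays labelled wild type therefore lacked the level of the gene that both ChAT lines carried, and they are called labelled wild type throughout. Whether those arrays are of IMR-32 cells cannot be told from the files used here. Each difference from labelled wild type given below, also for genes unrelated to ChAT, may therefore be one between a ChAT line and cells of another kind. Of 20 measured adrenergic neuroblastoma markers, 13 were higher and 1 (NEFL) was lower in the 82-kDa line. Their summed intensity was 22499 to 32412 on the 82-kDa arrays and 7564 to 7961 on the labelled wild-type arrays. A dim level was set at 55.9, the smallest of the 9 arrays' lower quartiles, and TH lay under it on all 6 arrays, while HAND2 was under it on the labelled wild-type arrays. Of 16 epithelial markers, 11 were lower and 1 was higher, with sums of 1166 to 1357 against 8543 to 9835. CDH1, DSP, EPCAM, KRT19 and KRT7 were under the dim level on all 82-kDa arrays, and KRT7 alone was under it on the labelled wild-type arrays. Of 17 mesenchymal markers, 5 were lower and 2 higher, with sums of 6983 to 9412 against 14885 to 16672. Of 6 Schwann cell and glial markers, 2 were lower, and none of 7 blood cell markers passed the test in either direction. These lists differed in the same comparison as every gene group described below, and their part in those results was not tested. In bulk RNA, fewer cells of a type and less RNA per cell cannot be told apart.

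Replicate 1 of the 82-kDa line stood apart from its group. It correlated with replicates 2 and 3 at 0.975 to 0.978, while those correlated with each other at 0.997 over log2 intensities. It was nearer to replicate 1 of the 69-kDa line (0.985). That array stood apart from its own group too, at 0.976 to 0.98 with replicates 2 and 3, which correlated at 0.998. In labelled wild type the gap was smaller, with replicate 1 at 0.99 to 0.991 and replicates 2 and 3 at 0.995. List counts given below as without replicate 1 come from replicates 2 and 3 of all groups, where 20.2% of all genes were higher and 23.8% lower than in labelled wild type.

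CHAT itself, the gene of the expressed protein, read 1066, 423 and 1067 on the 82-kDa arrays and 148, 125 and 114 on the labelled wild-type arrays. Every 82-kDa array was above every labelled wild-type array, a log2 difference of 2.61 ± 0.34 (SE, 3 arrays a group; limma, adjusted p 0.00057). The 69-kDa arrays read 256, 175 and 177. Which part of the transcript the CHAT probe set reads, and whether it detects the transgene, was not tested.

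Part of the promoters of chromatin genes that moved held the sequence CACGTG, the E-box to which MYCN and MYC bind as partners of MAX. The promoters of 4 named chromatin and repair genes are shown. Among the genes named from the lists with a match, they had the 2 highest and 2 lowest log2 differences. Both directions were thus present by choice. Genes on 1 chromosome were left out of this choice. EHMT2 (0.68) also held a match and is not shown. BCL11B and CBX5 were higher, and KDM6A and RAD50 were lower, in the 82-kDa line. Each sequence is the first start listed for the gene by RefSeq on GRCh38.p14, from 250 bases before the start to 50 after it, 5′ to 3′ on the strand of the gene. Capitals mark CACGTG, which reads alike on both strands.
BCL11B, chr14:99272148-99272447, minus strand: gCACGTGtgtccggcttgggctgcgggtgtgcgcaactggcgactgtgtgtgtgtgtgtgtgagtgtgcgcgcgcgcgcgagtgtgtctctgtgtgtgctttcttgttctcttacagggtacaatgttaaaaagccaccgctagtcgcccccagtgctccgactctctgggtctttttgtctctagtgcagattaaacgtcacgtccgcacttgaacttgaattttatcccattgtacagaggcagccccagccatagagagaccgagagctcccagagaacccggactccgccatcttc
CBX5, chr12:54280073-54280372, minus strand: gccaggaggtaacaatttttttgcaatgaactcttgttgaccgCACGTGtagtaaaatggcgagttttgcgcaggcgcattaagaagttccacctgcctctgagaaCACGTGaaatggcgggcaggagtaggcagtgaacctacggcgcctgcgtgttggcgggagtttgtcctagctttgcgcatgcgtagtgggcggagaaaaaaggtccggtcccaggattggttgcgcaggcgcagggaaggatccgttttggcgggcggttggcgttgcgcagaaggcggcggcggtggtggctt
KDM6A, chrX:44872938-44873237, plus strand: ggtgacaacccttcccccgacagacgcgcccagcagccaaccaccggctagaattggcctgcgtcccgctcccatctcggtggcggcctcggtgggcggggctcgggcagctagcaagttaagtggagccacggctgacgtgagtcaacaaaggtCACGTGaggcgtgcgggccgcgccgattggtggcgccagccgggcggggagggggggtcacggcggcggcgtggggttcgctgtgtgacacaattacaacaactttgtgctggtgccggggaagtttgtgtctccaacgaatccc
RAD50, chr5:132556727-132557026, plus strand: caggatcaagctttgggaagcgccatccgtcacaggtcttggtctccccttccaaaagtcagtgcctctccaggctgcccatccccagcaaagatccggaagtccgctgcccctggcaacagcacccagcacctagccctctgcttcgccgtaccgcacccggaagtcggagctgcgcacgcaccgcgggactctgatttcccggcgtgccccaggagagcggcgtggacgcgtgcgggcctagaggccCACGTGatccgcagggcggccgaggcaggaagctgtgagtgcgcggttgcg
The match in BCL11B began 249 bases before the start and that in KDM6A 95 bases before it. CBX5 held 2 matches, beginning 207 and 144 bases before the start, and the match in RAD50 began 1 base before the start and ran across it. CACGTG was present in 7.43% of the 27305 promoters listed and in 9.51% of the 9563 measured genes with a listed promoter. It was present in 16 of 122 nuclear list genes that were higher (13.1%), in 21 of 146 that were lower (14.4%) and in 89 of all 719 nuclear list genes with a promoter (12.4%). Over all genes with a listed promoter it was present in 142 of 1111 that were higher (12.8%) and in 174 of 1878 that were lower (9.27%). A match describes these letters only, and binding was not measured.

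The 82-kDa line had 2453 probe sets above labelled wild type (11.0%) and 3495 below it (15.7%). With the replicate number as a block 3967 were higher and 4519 lower. Read as genes, 1409 were higher (11.8%) and 2218 lower (18.5%), with a median log2 difference of 0.0522. The count of each list below is to be read beside these shares of all genes. The 18 nuclear lists together held 863 measured genes, of which 154 were higher (17.8%), 176 were lower (20.4%) and 533 did not pass, with a median of 0.0168. Nuclear genes were also brighter than other genes, with a median log2 level of 8.56 against 7.53. Within the interquartile range of the nuclear genes' level, 85 of 431 nuclear genes were higher (19.7%) and 98 lower (22.7%). Of all 4905 genes in that range 785 were higher (16%) and 1211 lower (24.7%). Without replicate 1 of each group, 259 nuclear genes were higher and 226 lower. Called or not, 458 of the 863 had arrays that did not overlap between the groups (53.1%), beside 45.7% of all genes. Of the 330 nuclear genes called, 329 did not overlap. Genes named from each list were chosen among those that did not overlap, so that this is no further support for them. Of the 863, 56 were called and at least 2-fold higher (6.49%) and 59 at least 2-fold lower (6.84%), where 3.87% and 6.50% of all genes were. In 34 of the 330 called the dimmer group was under the dim level on all its arrays, so that its level is uncertain. Of 161 called nuclear genes with several probe sets, 70 had every probe set called the same way. In 90 another probe set was not called, and in 1 a probe set was called the opposite way. Among genes named below, for example, KAT6B was called on 1 of 4 probe sets and KMT2B and SUN1 on 1 of 3. EHMT2, PHF8 and RAD21 were called on 1 of 2, and MED14 and NUP210 on 2 of 5.

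**Figure D1:**
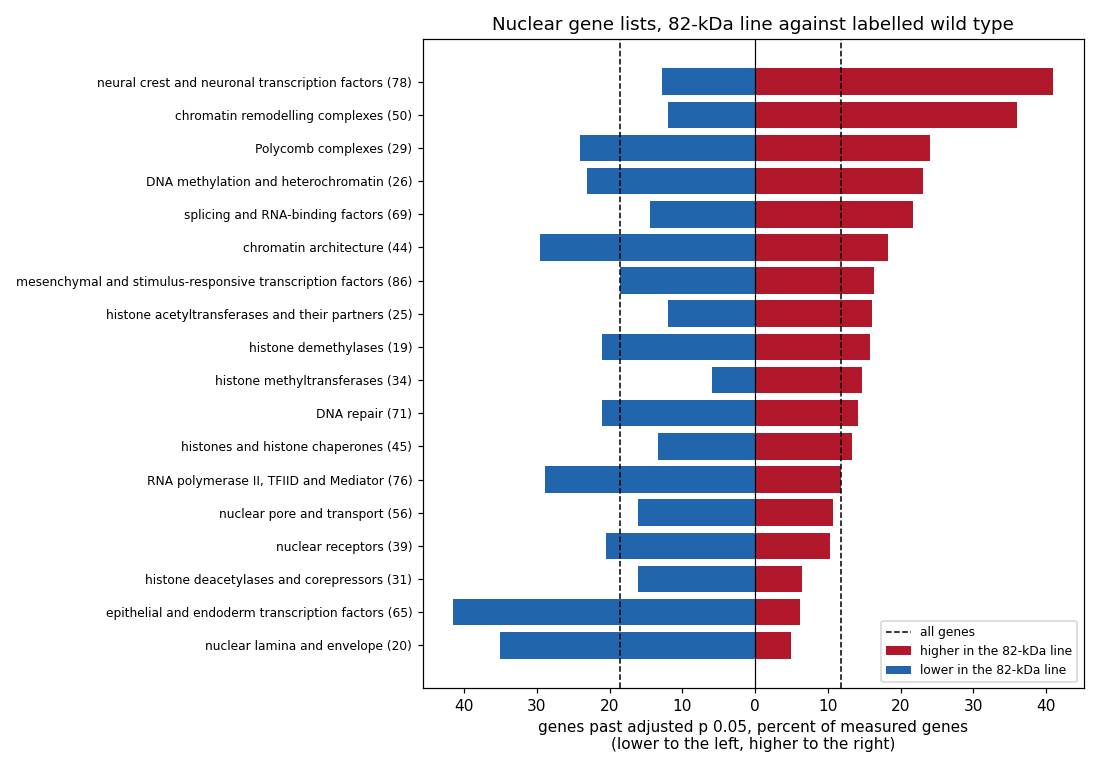
Share of the measured genes of each nuclear list that were called higher (to the right) or lower (to the left) in the 82-kDa line than in labelled wild type, in percent, with the number measured in brackets and dashed lines at the shares of all genes. Neural crest and neuronal transcription factors (41% higher) and chromatin remodelling complexes (36% higher) extend farthest to the right, and epithelial and endoderm transcription factors (41.5% lower) and the nuclear lamina and envelope (35% lower) farthest to the left.

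Histone acetyltransferases add acetyl groups to histone tails, which loosens chromatin. Of 25 measured genes of these enzymes and their partners, 4 were higher (16%) and 3 lower (12%), with a median log2 difference of -0.154. Without replicate 1 the counts were 6 and 5. KAT2B, also known as PCAF, read 29.3, 28.0 and 27.2 on the 82-kDa arrays and 97.1, 96.3 and 78.3 on the labelled wild-type arrays, a difference of -1.68 ± 0.12 (SE; limma, adjusted p 1.72e-05). All 3 of its 82-kDa values were under the dim level, so that this fold is uncertain. HAT1, which acetylates newly made histone H4, read 308, 551 and 623 against 904, 1266 and 1320 (-1.28 ± 0.33; adjusted p 0.0193). Replicate 1 was lowest in both groups for HAT1, and leaving out replicate 2 or 3 of labelled wild type took its adjusted p to 0.0672 and 0.0699. The groups did not overlap, as the choice of named genes required. KAT7, which acetylates histone H3 and H4, was higher, at 1164, 1047 and 1068 against 593, 645 and 659 (0.79 ± 0.09; adjusted p 0.000225). The related KAT6A (0.52) and KAT6B (0.41) were higher too, though KAT6A, with an adjusted p of 0.00753, reached 0.0578 under quantile normalization again, and TRRAP, a scaffold shared by several acetyltransferase complexes, was lower (-0.78). KAT5, the catalytic subunit of the TIP60 complex, read 340, 345 and 407 against 355, 311 and 326, and these values overlapped (0.14 ± 0.10; adjusted p 0.345). With the replicate block 7 genes of the list were lower, where 23.6% of all genes were.

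Histone deacetylases remove those acetyl groups and act within corepressor complexes. Of 31 measured genes, 2 were higher (6.45%) and 5 lower (16.1%), with a median of 0.0618. The counts were 5 and 7 with the replicate block and 7 and 6 without replicate 1. HDAC1, a catalytic subunit of the SIN3, NuRD and CoREST complexes, read 212, 381 and 390 on the 82-kDa arrays and 1579, 1768 and 1940 on the labelled wild-type arrays. This was a 5.56-fold lower level (-2.47 ± 0.22; limma, adjusted p 5.55e-05), with every 82-kDa array below every labelled wild-type array. HDAC2, its close relative in the same complexes, read 2245, 3510 and 3736 against 1432, 2789 and 2478. Its groups overlapped, and the difference of 0.52 ± 0.32 did not pass (adjusted p 0.281, or 0.0022 with the replicate block). HDAC3, the enzyme of the NCoR complex, was lower, at 445, 627 and 693 against 1045, 980 and 1076 (-0.84 ± 0.15; adjusted p 0.00306). HDAC5, a class IIa enzyme that shuttles between nucleus and cytoplasm, was higher, at 859, 866 and 810 against 407, 257 and 278 (1.46 ± 0.19; adjusted p 0.000598). RCOR3, a CoREST family member, was higher (1.21), and TLE1, a Groucho corepressor, was lower (-1.87), on all 3 of its probe sets. The deacetylases of both directions thus stood side by side in the 82-kDa line.

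Of 34 measured histone methyltransferase genes, 5 were higher (14.7%) and 2 lower (5.88%), with a median of 0.0115. The counts were 10 and 5 with the replicate block and 8 and 3 without replicate 1. The only called gene at least 2-fold apart was SMYD3, a SET and MYND domain methyltransferase. It read 781, 767 and 826 against 213, 176 and 222 (1.97 ± 0.11; limma, adjusted p 4.59e-06). EHMT2, also known as G9a, an enzyme of repressive histone H3 methylation, was higher (0.68), and KMT2B, of the activating MLL family, was lower (-0.93). NSD2 was higher by 0.56 ± 0.15 (adjusted p 0.0225), and its adjusted p rose to at most 0.078 when 1 array was left out. Of 19 measured demethylase genes, 3 were higher (15.8%) and 4 lower (21.1%), or 4 and 5 without replicate 1. KDM6A, also known as UTX, removes the methyl mark that Polycomb places on histone H3. It read 70.2, 95.7 and 95.8 on the 82-kDa arrays against 367, 536 and 475, a 5.25-fold lower level (-2.39 ± 0.23; adjusted p 8.87e-05), and all 3 of its probe sets were lower. KDM5C, an X-linked demethylase known from intellectual disability, read 358, 361 and 377 against 664, 690 and 695 (-0.90 ± 0.07; adjusted p 1.89e-05). The arrays of KDM5C were within a narrow range in each group. PHF8 was also lower (-0.81), while RIOX2 (1.07), KDM3A (0.70) and KDM2A (0.46) were higher. KDM1A, the demethylase of the CoREST complex, overlapped between the groups (0.04 ± 0.14; adjusted p 0.839).

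Polycomb complexes silence developmental genes, PRC2 by methylating histone H3 and PRC1 by binding that mark and by ubiquitinating histone H2A. Of 29 measured genes, 7 were higher (24.1%) and 7 lower (24.1%), or 9 and 9 without replicate 1. On the PRC1 side CBX2, a reader of the mark, read 654, 463 and 426 against 148, 144 and 197 (1.65 ± 0.18; limma, adjusted p 0.00018). PCGF1, a subunit of a variant PRC1, read 1820, 1718 and 1608 against 732, 583 and 532 (1.49 ± 0.17; adjusted p 0.000242), on both of its probe sets. Both PRC1 genes were higher on every 82-kDa array, as the choice of named genes required. Within PRC2, the scaffold SUZ12 read 514, 620 and 669 against 1235, 1536 and 1479 (-1.24 ± 0.21; adjusted p 0.00235). RBBP7, a histone-binding subunit shared with deacetylase complexes, read 1035, 1345 and 1445 against 4489, 4947 and 4453 (-1.87 ± 0.20; adjusted p 0.000154). The enzyme EZH2 was higher by 0.48 ± 0.14 (adjusted p 0.0307), and MTF2, an accessory subunit, was higher (0.93) on all 5 of its probe sets. The subunits of PRC2 thus did not move in one direction. SCML1, a Polycomb-like protein, was lower (-1.80).

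Of 26 measured genes of DNA methylation and heterochromatin, 6 were higher (23.1%) and 6 lower (23.1%), or 11 and 8 without replicate 1. DNMT3A, which places new methyl groups on DNA, read 457, 422 and 527 on the 82-kDa arrays and 141, 83.3 and 107 on the labelled wild-type arrays, a 4.33-fold higher level (2.11 ± 0.17; limma, adjusted p 4.04e-05). Its relatives did not pass: DNMT1, which maintains methylation, had a difference of -0.13 ± 0.10 (adjusted p 0.397) and DNMT3B of -0.52 ± 0.20 (adjusted p 0.0878, or 0.0072 with the replicate block). Heterochromatin protein 1 binds methylated histone H3 and compacts chromatin. Its beta form CBX1 read 3138, 4108 and 4429 against 1173, 1480 and 1281 (1.56 ± 0.19; adjusted p 0.000424). Its alpha form CBX5 read 1653, 1269 and 1589 against 757, 735 and 557 (1.14 ± 0.15; adjusted p 0.000504), and both of its probe sets were higher. TRIM28, the corepressor that brings HP1 to zinc finger proteins, was lower (-0.63), as were CDYL, a chromodomain corepressor (-1.40), and MORC4, an ATPase of the MORC family. MORC4 read 58.9, 83.0 and 69.3 against 678, 488 and 538, an 8.07-fold lower level (-3.01 ± 0.15; adjusted p 2.24e-06). MBD2, a reader of methylated DNA, was lower by its brightest probe set (-2.04), but 2 of its 4 probe sets were called higher, so that no direction is given for the gene.

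**Figure D2:**
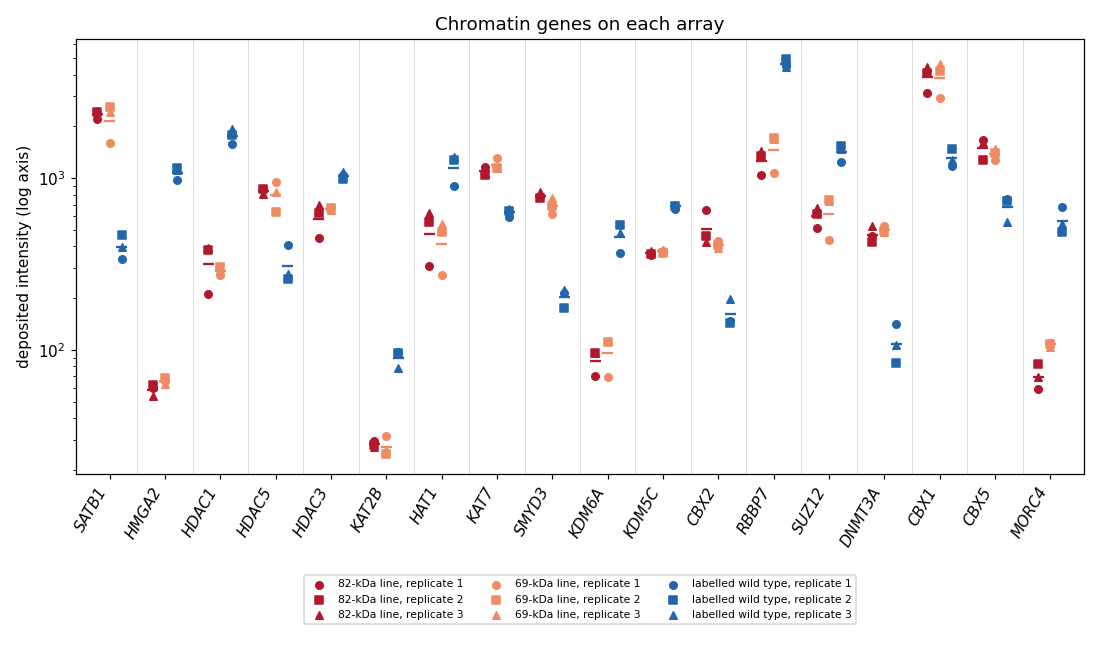
Deposited intensity (log axis) of 18 chromatin genes on each array of the 82-kDa line, the 69-kDa line and labelled wild type, with symbols for the replicate number and bars for the mean of the log values. The 82-kDa arrays are apart from the labelled wild-type arrays for each gene, as the choice of named genes required. The 69-kDa means lie nearer to the 82-kDa than to the labelled wild-type means.

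Chromatin remodelling complexes use ATP to slide or evict nucleosomes, and the BAF complex among them changes subunits when progenitors become neurons. Of 50 measured genes, 18 were higher and 6 lower, with a median of 0.267, beside 11.8% and 18.5% of all genes and a median of 0.0522. Without replicate 1 of each group, 27 remodelling genes were higher and 7 lower. BCL11B, a zinc finger subunit of BAF also known as CTIP2, read 246, 430 and 525 against 68.6, 93.4 and 81.3 (2.25 ± 0.31; limma, adjusted p 0.00072). SS18L1, the neuronal subunit also known as CREST, read 350, 547 and 522 against 157, 222 and 147 (1.43 ± 0.24; adjusted p 0.00205). ACTL6B, the neuronal actin-like subunit BAF53B, read 249, 239 and 275 against 113, 129 and 114 (1.10 ± 0.19; adjusted p 0.00268). No array of the line overlapped labelled wild type for these neuronal subunits, as the choice of named genes required. ACTL6A, the subunit that ACTL6B replaces in neurons, was looked up after these values were seen. It read 258, 673 and 662 against 248, 467 and 455, with replicate 1 lowest in both groups and a difference of 0.38 ± 0.48 (adjusted p 0.596, or 0.038 with the replicate block). BCL11A was higher (0.97) on all 3 of its probe sets.

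Other subunits of BAF were read beside these. SMARCA4, the ATPase BRG1, read 2943, 2677 and 3019 against 2157, 1686 and 1860 (0.60 ± 0.10; limma, adjusted p 0.00252), and 6 of its 8 probe sets were higher with none lower. SMARCA2, the alternative ATPase BRM, read 187, 185 and 180 against 251, 421 and 346 (-0.85 ± 0.18; adjusted p 0.00843), and 4 of its 6 probe sets were lower with none higher. The pair of ATPases thus moved in opposite directions. SMARCC1 (0.71, on all 4 of its probe sets), SMARCD1 (0.58) and BCL7A (0.80) were higher. SMARCD3, PHF10 and BCL7C were lower, by -0.85, -0.82 and -0.54 in log2 difference. PHF10 belongs to the progenitor form of BAF. Its adjusted p of 0.0309 became 0.0515 when each array was centred on its median, and SMARCD3 (adjusted p 0.0198) reached 0.07 when 1 array was left out. SMARCB1 (0.11) and SMARCC2 (0.21) did not pass, and ARID1A (-0.20, adjusted p 0.0585) passed with the replicate block alone (0.039). Outside BAF, CHD7 (0.97) and CHD3 (0.83), ATPases of the CHD family, were higher.

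**Figure D3:**
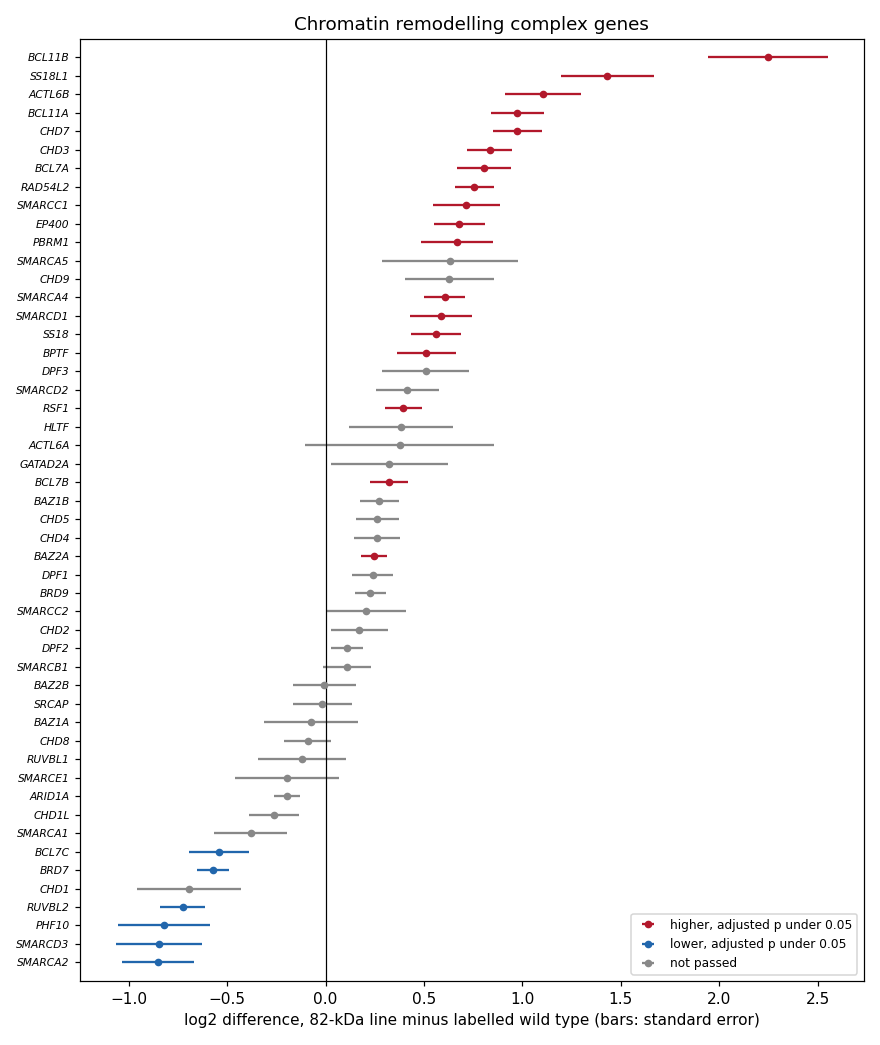
Log2 difference between the 82-kDa line and labelled wild type for all 50 measured chromatin remodelling genes, with standard error bars, in the order of the difference. BCL11B, SS18L1 and ACTL6B are at the top, 18 genes are called higher, 6 are called lower and 26 did not pass.

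Chromatin architecture genes fold DNA into loops and domains. Of 44 measured genes, 8 were higher (18.2%) and 13 lower (29.5%), with a median of -0.157. Without replicate 1 the counts were 14 and 17. SATB1, which anchors chromatin loops at AT-rich sequence, read 2194, 2427 and 2466 on the 82-kDa arrays and 339, 469 and 394 on the labelled wild-type arrays, a 5.94-fold higher level (2.57 ± 0.19; limma, adjusted p 2.02e-05). HMGA2, an AT-hook protein of embryonic and tumour cells, read 59.8, 62.2 and 53.8 against 968, 1140 and 1114, an 18.3-fold lower level (-4.20 ± 0.09; adjusted p 3.82e-08). Its 82-kDa values lay near the dim level, so that this fold is uncertain. The related HMGA1 was higher by 0.44 (adjusted p 0.0139), so that the AT-hook proteins did not move together. Cohesin, the ring that holds loops and sister chromatids, split too. Its subunit SMC1A read 1360, 2315 and 2170 against 3530, 5931 and 4949 (-1.31 ± 0.26; adjusted p 0.00607), and STAG2 was lower (-0.74). RAD21, the subunit that closes the ring, was higher, at 1374, 1670 and 1621 against 923, 774 and 1083 (0.76 ± 0.13; adjusted p 0.0028). CTCF, which halts cohesin at loop anchors, did not pass (0.23 ± 0.16; adjusted p 0.32). ARID5B (-2.17) and TOX3 (-2.57) were lower. Replicate 1 of the 82-kDa line read 131 for TOX3 and the others 39.9 and 37.5.

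Among 45 measured histones and histone chaperones 6 were higher (13.3%) and 6 lower (13.3%), or 10 and 10 without replicate 1. NAP1L3, a neuronal member of the nucleosome assembly family, read 171, 181 and 158 against 34.9, 31.1 and 35.8 (2.33 ± 0.13; limma, adjusted p 3.21e-06), and its labelled wild-type values were all under the dim level. CHAF1B, of the chaperone that loads histones behind the replication fork, was lower, at 252, 252 and 301 against 496, 510 and 495 (-0.90 ± 0.09; adjusted p 0.000121). ASF1B, a chaperone of dividing cells, was lower (-0.85) and its paralogue ASF1A was higher (0.85). The histone gene H2BC12 was lower by -2.48, but histone genes are nearly identical in sequence and this level is uncertain. Among 20 measured genes of the nuclear lamina and envelope, 1 was higher (5%) and 7 lower (35%), with a median of -0.23. With the replicate block 2 were higher, and without replicate 1 the counts were 1 and 9. TOR1B read 208, 192 and 240 against 392, 477 and 411 (-1.0 ± 0.12; adjusted p 0.000324), and its relative TOR1A, the torsin ATPase of the nuclear envelope mutated in dystonia, was lower by -0.82 on both of its probe sets. SUN1, which links the lamina to the cytoskeleton, read 509, 688 and 665 against 970, 1194 and 1102 (-0.82 ± 0.13; adjusted p 0.00196). Of its 3 probe sets, 1 was called. The inner membrane proteins EMD (-0.70), LEMD3 (-0.59), LBR (-0.57) and SUN2 (-0.40) were lower as well. The lamins themselves did not pass by their brightest probe sets, with LMNA at -0.10, LMNB1 at 0.49 (adjusted p 0.046 with the replicate block) and LMNB2 at -0.16.

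Of 56 measured nuclear pore and transport genes, 6 were higher and 9 lower (11 and 15 with the replicate block, beside 18.3% and 23.6% of all genes). Without replicate 1 the counts were 19 and 15. RANGAP1, which sets the Ran gradient that drives transport, read 501, 564 and 592 against 1068, 1053 and 1192 (-1.0 ± 0.11; limma, adjusted p 0.000257), on both of its probe sets. The import receptor IPO9 was higher, at 2033, 1861 and 1780 against 1017, 927 and 1004 (0.94 ± 0.10; adjusted p 0.00019). NUP210, a pore membrane protein, and KPNA6, an importin alpha, were lower, at -0.93 and -0.80. Of 69 measured splicing and RNA-binding factors, 15 were higher (21.7%) and 10 lower (14.5%), or 26 and 15 without replicate 1. PTBP2, the splicing repressor of developing neurons, read 586, 726 and 767 against 198, 132 and 156 (2.11 ± 0.19; adjusted p 7.57e-05). ELAVL4, the neuronal RNA-binding protein HuD, was 35.3-fold higher. MBNL2, a splicing regulator of brain, was higher by 1.99 on all 3 of its probe sets. CELF2 read 260, 209 and 230 against 814, 878 and 865 (-1.87 ± 0.13; adjusted p 1.5e-05), also on all 3. ELAVL1, the ubiquitous relative of ELAVL4, was lower, at 981, 611 and 673 against 2320, 2519 and 2822 (-1.78 ± 0.17; adjusted p 0.0001). The ELAVL genes thus went both ways, the neuronal ELAVL4 and ELAVL2 up and ELAVL1 down.

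RNA polymerase II, TFIID and Mediator form the machinery that starts transcription. Of 76 measured genes 9 were higher (11.8%) and 22 lower (28.9%), with a median of -0.161. The counts were 19 and 25 with the replicate block and 24 and 26 without replicate 1. Mediator's backbone MED14 read 596, 623 and 645 against 1132, 1492 and 1532 (-1.14 ± 0.15; limma, adjusted p 0.000534), and MED8 was lower (-1.07) on all 3 of its probe sets. POLR2E, a subunit common to the 3 nuclear RNA polymerases, read 1081, 1504 and 1586 against 2044, 2073 and 2640 (-0.71 ± 0.17; adjusted p 0.0126). The largest subunit POLR2A did not pass (-0.20 ± 0.07; adjusted p 0.0721). The elongation factor SUPT4H1 was higher (0.81), and SUPT5H, its partner in DSIF, was lower (-0.88). GTF2I, a general transcription factor with roles in signalling, was higher by 1.12.

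Of 71 measured DNA repair genes, 10 were higher (14.1%) and 15 lower (21.1%), or 22 and 18 without replicate 1. The MRN complex, which senses double-strand breaks, split: NBN read 1233, 1187 and 1119 against 472, 481 and 494 (1.29 ± 0.09; limma, adjusted p 1.07e-05), on all 4 of its probe sets. RAD50 read 247, 298 and 299 against 543, 641 and 639 (-1.11 ± 0.12; adjusted p 0.00019), on both of its probe sets, and MRE11 was lower by -0.73 ± 0.15 (adjusted p 0.00561). The scaffold MDC1, which gathers repair factors at breaks, was lower, at 399, 554 and 554 against 1157, 1398 and 1149 (-1.31 ± 0.15; adjusted p 0.000308). TP53BP1, which acts with it at breaks, was higher by 0.73. DDB2, of nucleotide excision repair, was lower (-1.06).

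Of 39 measured nuclear receptors, 4 were higher (10.3%) and 8 lower (20.5%), or 6 and 10 without replicate 1. With the replicate block 8 were higher. NR3C1, the glucocorticoid receptor, read 185, 207 and 158 on the 82-kDa arrays and 740, 777 and 780 on the labelled wild-type arrays, a 4.2-fold lower level (-2.07 ± 0.13; limma, adjusted p 9.02e-06), on all 4 of its probe sets. NR2F1, also known as COUP-TFI, read 54.3, 56.7 and 51.7 against 278, 351 and 334 (-2.56 ± 0.11; adjusted p 9.44e-07). ESRRG, an orphan receptor of metabolic genes, read 969, 311 and 305 against 40.6, 37.9 and 43.6 (3.47 ± 0.39; adjusted p 0.000222). Replicate 1 of the line was well above its other arrays, and the labelled wild-type values were under the dim level.

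Of 78 measured neural crest and neuronal transcription factors, 32 were higher (41%) and 10 lower (12.8%), or 35 and 12 without replicate 1. The median of this list was 0.28, and 25 of the 32 were at least 2-fold higher. The adrenergic marker list, whose sums are given above, shares MYCN, PHOX2A, HAND2, GATA3 and ISL1 with it. NHLH2, a neuronal helix-loop-helix factor, read 2023, 3660 and 3367 against 87.3, 96.3 and 81.8 (5.05 ± 0.41; limma, adjusted p 3.87e-05). TLX2, a homeobox factor of the peripheral nervous system, read 1186, 2157 and 2707 against 65.2, 69.3 and 81.0 (4.74 ± 0.27; adjusted p 4.83e-06). INSM1, a zinc finger factor of neuroendocrine cells, read 2308, 2080 and 1998 against 135, 119 and 137 (4.03 ± 0.10; adjusted p 4.74e-08). For these factors the lowest 82-kDa array was far above the highest labelled wild-type array. MEIS1, a homeobox cofactor, was 18.2-fold higher and its paralogue MEIS2 was 2.47-fold lower. TFAP2A, a factor of early neural crest, was lower (-2.88), with replicate 1 at 309 and the others at 114 and 101.

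Of 65 measured epithelial and endoderm transcription factors, 4 were higher (6.15%) and 27 lower (41.5%), with a median of -0.291. Without replicate 1 the counts were 6 and 31. This list also holds factors not particular to epithelium or endoderm, such as MYB, ID1 and HEY1. The list moved with the epithelial markers, whose sums were 1166 to 1357 against 8543 to 9835. The part of those markers in the result was not tested. GATA6, a factor of endoderm and heart, read 19.9, 20.4 and 18.9 against 316, 357 and 326 (-4.08 ± 0.08; limma, adjusted p 1.5e-08), with all 82-kDa values under the dim level. HEY1, a target and effector of Notch, read 227, 185 and 152 against 2560, 3060 and 2343 (-3.83 ± 0.15; adjusted p 5.31e-07), and HES1, another Notch target, was 7.33-fold lower with its 82-kDa values under the dim level. MYC, the relative of MYCN, read 33.9, 34.0 and 32.4 against 233, 124 and 229 (-2.49 ± 0.21; adjusted p 5.18e-05), so that MYC was higher where MYCN was lower, though its 82-kDa values were under the dim level. ID1, an inhibitor of helix-loop-helix factors, was higher (1.25) while ID3 (-1.71) and ID4 (-2.31) were lower. The ID1 call had an adjusted p of 0.0196, and of up to 0.0739 when 1 array was left out.

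Of 86 measured mesenchymal and stimulus-responsive transcription factors, 14 were higher (16.3%) and 16 lower (18.6%), or 24 and 20 without replicate 1. SNAI2, a zinc finger factor known from epithelial-mesenchymal transition, read 295, 1027 and 976 against 67.8, 79.3 and 55.7 (3.32 ± 0.48; limma, adjusted p 0.000991). TWIST1 read 483, 738 and 969 against 84.9, 104 and 98.9 (2.88 ± 0.25; adjusted p 5.18e-05), and ZEB1 was higher by 2.33 on all 3 of its probe sets. The mesenchymal markers as a sum were lower in the line, as given above, and that sum's part in the result was not tested. Their median log2 difference was -0.0196, and 10 of the 17 did not pass. JUN, of the AP-1 factor, was lower, at 267, 511 and 481 against 1249, 1621 and 1494 (-1.84 ± 0.25; adjusted p 0.000755). ATF3, a stress-induced factor, was lower by -1.94 ± 0.57 (adjusted p 0.0336), and its adjusted p was up to 0.103 when 1 array was left out. The 69-kDa arrays, which enter the same fit, read 666, 115 and 140 for ATF3.

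**Figure D4:**
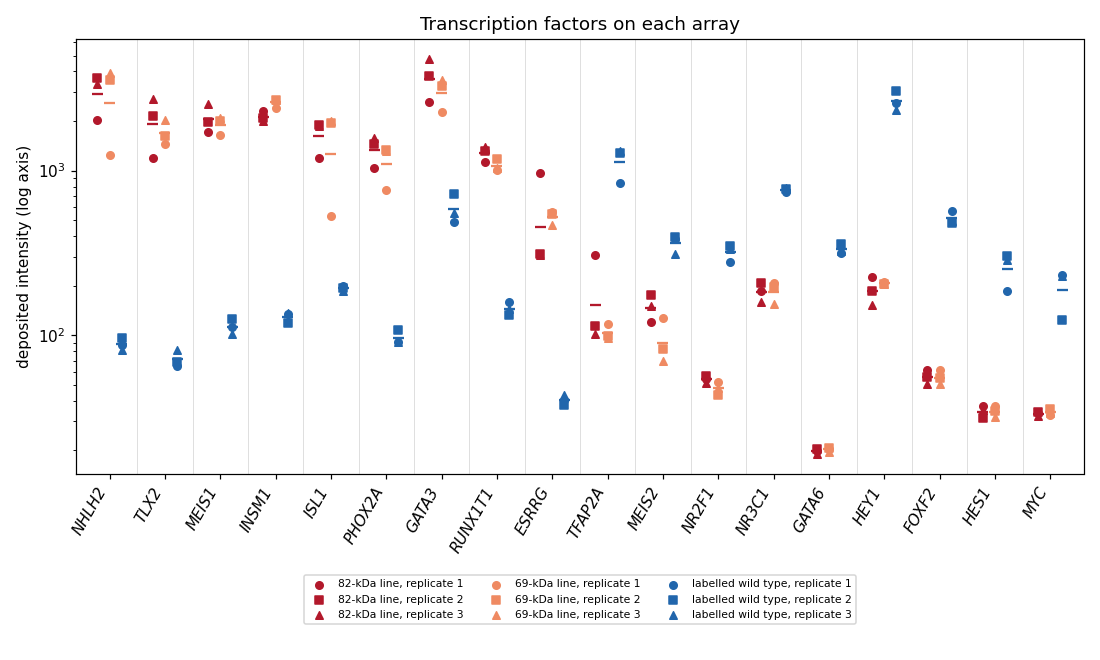
Deposited intensity (log axis) of 18 transcription factors on each array of the 82-kDa line, the 69-kDa line and labelled wild type, with symbols for the replicate number and bars for the mean of the log values. The factors from NHLH2 to ESRRG are high, and those from TFAP2A to MYC are low, on the arrays of both lines.

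Genes tied to acetylcholine and to amyloid precursor protein were read as context. Of 18 measured cholinergic genes, 7 were higher (38.9%) and none lower, beside 11.8% and 18.5% of all genes. Without replicate 1 the counts were 10 and 0. The 7 include CHRNA3, a ganglionic nicotinic receptor subunit (7.1-fold), and CHAT itself. Of 35 measured genes of APP processing and sorting, 9 were higher (25.7%) and 7 lower (20%), or 13 and 8 without replicate 1. CLU, the lipoprotein clusterin, read 88.7, 117 and 123 against 1370, 1865 and 2036 (-4.00 ± 0.19; limma, adjusted p 1.47e-06), and BACE2 was 6.1-fold lower. BACE1, the beta-secretase, read 204, 170 and 148 against 162, 160 and 159 and overlapped (0.11 ± 0.11; adjusted p 0.517). GGA3, a sorting adaptor of BACE1, read 496, 404 and 397 against 348, 303 and 301. Its groups did not overlap, and its difference of 0.44 ± 0.14 had an adjusted p of 0.0505, or 0.0028 with the replicate block. APP overlapped (-0.17 ± 0.30; adjusted p 0.714). Of 42 measured genes of the integrated stress response and amino acid supply, 5 were higher (11.9%) and 2 lower (4.76%). With the replicate block 5 were lower, and without replicate 1 the counts were 14 and 7. PYCR1, of proline synthesis, was 2.78-fold higher. The median 95% interval between the lines reached 0.626 to either side for this list, beside 0.293 for all genes. For TRIB3 the 69-kDa arrays, which enter the same fit, read 981, 239 and 275. TRIB3 read 215, 209 and 237 against 416, 396 and 466 (limma, adjusted p 0.165, or 0.00089 in replicates 2 and 3). The part of that array in the counts was not tested.

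Differences not seen with the 69-kDa line were tested as the direct difference between the lines, over the same 9 arrays. The 82-kDa arrays served in this comparison and in the one above, and the lines were set against the same labelled wild-type arrays. The values are therefore given side by side, and neither is evidence for the other. By limma, 0 of 22215 probe sets were called between the lines in either direction (0%), and 0 with the replicate block (0%). At an unadjusted p under 0.05 there were 733 probe sets (3.3%), or 1465 (6.59%) with the block. The smallest adjusted p was 0.256, or 0.0606 with the block. The median probe set's 95% interval reached 0.285 to either side of its difference, and that of the median nuclear list gene 0.323. Among the nuclear list genes called against labelled wild type, 50 of 330 did not pass in the 69-kDa line, and 0 of those 50 were called between the lines. As no probe set was called between the lines, the 0 of 50 was fixed in advance and adds nothing about these genes. The matching share of all genes for the 50 of 330 is not given here.

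For several chromatin genes far from labelled wild type the lines were close. SATB1 read 1596, 2595 and 2405 on the 69-kDa arrays, and the 82-kDa line differed from it by 0.13 (95% interval -0.30 to 0.56). HDAC1 read 272, 304 and 290, a difference of 0.13 (-0.36 to 0.63). HMGA2 read 66.2, 68.1 and 63.6, a difference of -0.17 (-0.38 to 0.04). In both lines HMGA2 lay near the dim level of 55.9, where a difference between the lines could go unseen. The log2 differences of SATB1, HDAC1 and HMGA2 from labelled wild type were larger than any value within their intervals between the lines. For DNMT3A the difference between the lines was -0.10 (-0.50 to 0.30), for KDM6A -0.14 (-0.66 to 0.37) and for BCL11B -0.01 (-0.71 to 0.69). KAT7 differed by -0.13 (-0.33 to 0.08).

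CHAT differed between the lines by 1.97 ± 0.34 (95% interval 1.20 to 2.75). Its unadjusted p was 0.000317, and after adjustment over all probe sets it did not pass (0.704, 0.277 with the replicate block and 0.0712 in replicates 2 and 3). By replicate number the difference was 2.06, 1.27 and 2.59. The 3 82-kDa arrays were thus all above the 69-kDa arrays.

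The 10 nuclear list genes with the largest difference between the lines under the replicate block were H3-3A, NUCKS1, EYA1, LDB2, SOX9, NASP, MEIS2, HLX, PHF10 and SIX3, all higher in the 82-kDa line and none past the test. NUCKS1, a chromatin-bound nuclear protein, read 1900, 1806 and 3209 on the 82-kDa arrays and 1155, 967 and 1177 on the 69-kDa arrays (1.02, 95% interval 0.37 to 1.68). On the labelled wild-type arrays it read 2796, 1642 and 1395, which overlapped the 82-kDa values. SIX3, a homeobox factor of forebrain and eye, read 589, 382 and 376 on the 82-kDa arrays, 306, 268 and 261 on the 69-kDa arrays and 68.9, 78.3 and 64.1 on the labelled wild-type arrays. SIX3 was thus high in both lines. Its 82-kDa values were all above its 69-kDa values (0.66, 95% interval 0.26 to 1.06), but the difference did not pass. The intervals given here are not adjusted for the choice of these genes by the same difference. H3-3A, a gene of histone H3.3, read 330, 149 and 1087 against 144, 127 and 144 in the 69-kDa line, and 425, 142 and 94.0 in labelled wild type. Its spread within groups was as large as the difference, and its near-identical copies make the level uncertain. PHF10 read 732, 972 and 1177 against 414, 700 and 712, both below the labelled wild-type values of 1544 to 1817.

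Of the 863 nuclear list genes, 4 differed between the lines by more than 0.5 on the log2 scale in the same direction at each replicate number. NUCKS1 and SIX3 were higher. NHLH1, a neuronal helix-loop-helix factor, was lower by -0.62, -0.52 and -0.53, and CDYL, the chromodomain corepressor named above, by -0.60, -0.51 and -0.80. CDYL read 319, 236 and 220 on the 82-kDa arrays, 483, 337 and 381 on the 69-kDa arrays and 671, 639 and 706 on the labelled wild-type arrays. The 69-kDa arrays thus lay between the other groups. The adjusted p of these 4 genes with the block was 0.474 to 0.741. Over all 22215 probe sets 29 met the same rule. That count takes every probe set and not the brightest of each gene, and the share of all genes is not given here.

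**Figure D5:**
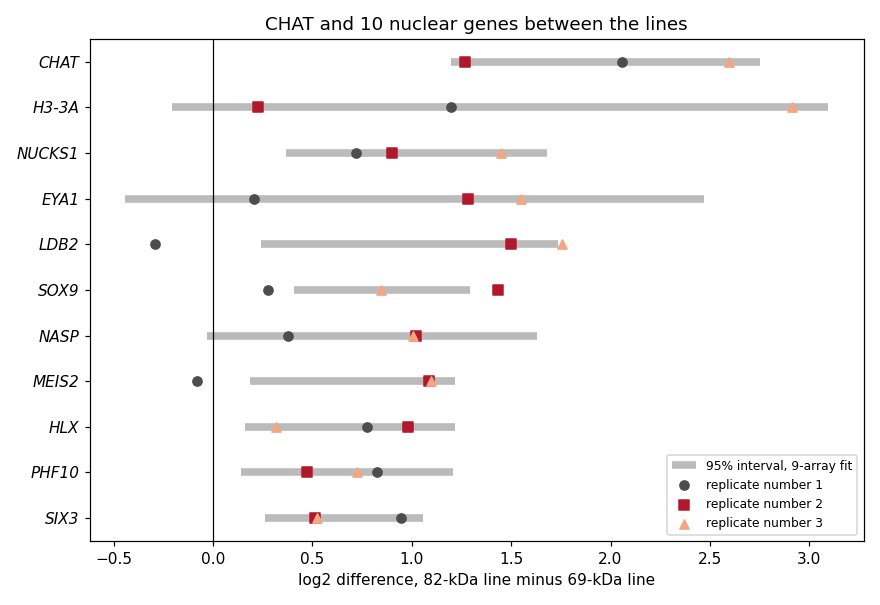
Log2 difference between the 82-kDa and the 69-kDa line for CHAT and for the 10 nuclear list genes with the largest difference, with a point for each replicate number and a grey bar for the 95% interval of the fit over 9 arrays. CHAT points are at 1.27 to 2.59, and LDB2 and MEIS2 have replicate 1 below 0 and replicates 2 and 3 above 1.

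In replicates 2 and 3 alone, which lay much closer together within each group, 218 probe sets lay above the 69-kDa line (0.981%) and 236 below it (1.06%). Read as genes, 1.13% of all genes were higher and 1.32% lower. Of the nuclear list genes 16 were higher and 10 lower, and 12 of these 26 had the same sign in replicate 1. Among the higher genes, LDB2, a LIM domain-binding cofactor, read 237 and 274 against 83.8 and 81.2 (1.63; limma, adjusted p 0.00123), while its replicate 1 was 111 against 136. EYA1, a transcriptional coactivator and phosphatase of organ development, read 691 and 751 against 284 and 257 (1.42; adjusted p 0.00129), with replicate 1 at 130 against 112. NASP, a chaperone of linker histones and H3-H4, read 2311 and 2494 against 1139 and 1240 (1.01; adjusted p 0.00743), with replicate 1 at 924 against 712. For LDB2 and EYA1 replicate 1 of the 82-kDa line was thus far below its other arrays. ZMPSTE24, the protease that matures prelamin A, read 1674 and 1775 against 974 and 1047 (0.77; adjusted p 0.00883), and 691 against 614 in replicate 1.

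Among the lower genes, HAND1, a helix-loop-helix factor of the sympathetic lineage, read 428 and 393 against 843 and 792 (-0.99; limma, adjusted p 0.0059). In replicate 1 it read 1323 against 343, the opposite direction. NEUROG2, a proneural factor, read 44.8 and 48.7 against 95.1 and 87.3 (-0.97; adjusted p 0.00362), with replicate 1 at 158 against 97.8. The 82-kDa values of NEUROG2 in replicates 2 and 3 were under the dim level, so that this fold is uncertain. TET1, which oxidises methylated DNA, read 63.4 and 70.1 against 103 and 118 (-0.72; adjusted p 0.0204), with replicate 1 at 59.3 against 42.0. ESRRG read 311 and 305 against 544 and 471 in replicates 2 and 3 (-0.71; adjusted p 0.0237) and 969 against 561 in replicate 1. These 4 genes changed direction between replicate 1 and the others, and none of them was called over all arrays. CDYL and NHLH1 were called lower in replicates 2 and 3 and were lower in replicate 1 as well. BPTF, the reader subunit of the NURF remodelling complex, was lower in replicates 2 and 3, at 730 and 831 against 1121 and 1183 (-0.56; adjusted p 0.0384), and read 845 against 789 in replicate 1.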

How the data were processed

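RNA of 3 groups of 3 samples was hybridised to single-channel oligonucleotide arrays with 1 probe set table for the series. The authors deposited linear intensities, 14.9 to 21486, and the submitters' processing notes name RMA, which corrects background, normalizes by quantiles and summarises probes. The sources used here give no version or settings. The deposited intensities were converted to log2 with no further normalization. Array number limits precision, and p-values measure only the spread between these samples.

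limma 3.58.1 in R 4.3.3 was fitted with 3 group means over all 9 arrays (6 residual degrees of freedom), and tests were two-sided. The fit was tested on simulated data. Probe sets were named from the platform annotation: 19065 had 1 symbol, 1043 several and 2107 none, and 19053 matched a RefSeq gene. Probe sets ending in _s_at or _x_at can read related transcripts. Same-numbered arrays deviated together in all 9 pairs across groups (correlations 0.28 to 0.57). Of the 9 arrays, 6 correlated best with their own number in both other groups. Replicate 2 of a group and replicate 3 of another also deviated together (0.21 to 0.48). Deviations were taken from the mean of each group of 3 arrays, so they are not independent. A shared deviation of replicate 1 by itself pushes replicates 2 and 3 the other way together. The numbers thus set replicate 1 apart more clearly than they tell replicates 2 and 3 apart. The fit with the number as a block is an alternative.

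The members and lists were chosen with earlier results of these data known. Named genes are CHAT, up to 3 higher and 3 lower called genes of each list with the largest difference, non-overlapping arrays and no probe set called the opposite way, the 10 nuclear genes that differed most between the lines, up to 3 called genes of each context list, and GGA3, BACE1, APP, SATB1 and KAT5. Other genes named beside them, such as HDAC2, ACTL6A, SMARCA4, the lamins and MBD2, were chosen after their values were seen. Genes of the X-inactivation centre and Y-linked genes are not reported.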

Additional observations from a re-analysis of the deposited data

How the results depend on the processing

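Alternatives were median centring, quantile normalization again, a pseudocount of 16, only probe sets above the median, no _x_at or _s_at probe sets, limma with trend and robust, array weights, the replicate block, replicates 2 and 3 only, only the arrays compared, a 2-fold minimum, the mean of a gene's probe sets (nuclear lists only) and leaving out each array. Against labelled wild type the main 2453 higher probe sets became 1220 without _x_at and _s_at probe sets (of 11813 tested), 4727 with array weights, 3967 with the replicate block, 4308 in replicates 2 and 3 and 771 at 2-fold, and 1822 to 2824 with 1 array left out. The 3495 lower became 1560 without those probe sets and 1221 at 2-fold, and 2864 to 3765 with 1 array left out. The 154 higher nuclear genes became 79 (of 441) without those probe sets, 255 with array weights, 259 in replicates 2 and 3 and 56 at 2-fold, and the 176 lower became 87 and 59 in the first and last of these; leaving out 1 array gave 113 to 179 and 144 to 195. Between the lines, array weights called 803 higher and 901 lower, replicates 2 and 3 called 218 and 236, and leaving out 1 array gave 0 to 26 and 0 to 10, the most without replicate 1 of the 82-kDa line. Array weights were 0.164 and 0.186 for replicate 1 of the lines and up to 5.66 for others. Every other alternative kept these counts within 1.5 times, and 0 between the lines; beside the calls named in the text, the block changed no other call of a named gene. Of 117 called named probe sets, 105 stayed called under every alternative that tested them, 12 were lost under at least 1 (3 of them, KAT6A, PHF10 and PDS5B, under a scaling), and 0 turned direction. Among differences that were not called, NUCKS1 (0.26) turned to -0.0036 without replicate 3 of the 82-kDa line and ranged up to 0.56. BACE1 (0.11) turned to -0.007 in replicates 2 and 3, and leaving out 1 array gave -0.014 to 0.22. NASP (-0.11) turned to 0.29 with array weights and to 0.35 in replicates 2 and 3 (adjusted p 0.0262), and leaving out 1 array gave -0.37 to 0.35. The cause was not tested.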
